A study of Mus musculus with 10 samples.

Results

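The genes described here are 9 mouse genes of the integrated stress response: the sensor kinase gene Eif2ak3, the transcription factor genes Atf3, Atf4, Atf5 and Ddit3 (which encodes CHOP), and the response genes Chac1, Trib3, Ppp1r15a and Fgf21. Their members were taken as all probe sets whose platform gene symbol is one of these 9, which gave 15 of the 45037 probe sets on the array. A probe set is a group of short probes meant to report a gene, and its intensity is a brightness on a linear scale. It can match more than 1 transcript. Of the 15, 12 passed a filter that left out the dimmest 25% of all probe sets (mean intensity up to 13.4), and 3 were too dim to test, a single Atf4 probe set (1439258_at) and 2 of the 3 for Eif2ak3 (1430371_x_at and 1453505_a_at).

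Transcript levels were measured on 10 Affymetrix arrays hybridised with RNA of 3T3-L1 cells, an established line of mouse fibroblasts that behave as preadipocytes and form fat cells when given inducers. All cells were uninduced and transfected with 60 nM siRNA, either a scrambled control (siC) or an siRNA against LSD1 (siLsd1), the histone demethylase encoded by Kdm1a. At 24 h after transfection the cells were of passage 19 and each siRNA had 2 arrays, and at 48 h they were of passage 21 and each siRNA had 3 arrays, so time and passage cannot be told apart. The medium was not changed between transfection and collection, in siC and siLsd1 dishes alike. All samples come from a single cell line and a single siRNA per target is labelled, and the labels call the replicates biological, so that p-values speak of the spread from dish to dish.

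In the integrated stress response, kinases that sense different stresses phosphorylate the translation factor eIF2alpha, which lowers protein synthesis while it raises translation of the ATF4 mRNA. PERK, the product of Eif2ak3, is the kinase that senses unfolded protein in the endoplasmic reticulum. ATF4 then induces a set of genes that includes those for CHOP, ATF3, TRIB3 and CHAC1, and GADD34, the product of Ppp1r15a, brings a phosphatase to eIF2alpha and closes the loop. CHOP is also known in 3T3-L1 cells as a partner of C/EBP proteins that hinders their differentiation into fat cells.

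The promoters of the members show where 2 DNA elements of this pathway lie. RefSeq's table for GRCm38.p6 held all 9 members with 10 start sites, each with the window from 250 bases before to 50 after the start (300 bases). Both strands were searched for TGATGNAA, the composite element that C/EBP and ATF proteins share (TTNCATCA on the opposite strand), and for the cAMP response element TGACGTCA. These 8-letter elements do not overlap each other in the members. The composite element occurred in 4 of the 9 members, Atf3, Chac1, Trib3 and Fgf21, against 3.97% of 32851 promoter windows of the whole table. The cAMP response element occurred in Ppp1r15a alone of the 9, against 1.79% of all windows. Members are counted here by gene over their 10 windows, and the whole table by window. The members were also chosen as genes of this response, so the shares stand side by side as a description only. A match is only a run of letters and not a measured binding site.

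The following stretches belong to the 7 members that were called at 24 h or 48 h, and they are shown so that the elements can be read in their surroundings. Each runs 5′ to 3′ on the gene's strand and lies just upstream of the annotated gene, and for Trib3 it goes on for 22 bases into the gene. Capitals mark a match, and positions are counted from the first transcribed base as 1.
Atf3: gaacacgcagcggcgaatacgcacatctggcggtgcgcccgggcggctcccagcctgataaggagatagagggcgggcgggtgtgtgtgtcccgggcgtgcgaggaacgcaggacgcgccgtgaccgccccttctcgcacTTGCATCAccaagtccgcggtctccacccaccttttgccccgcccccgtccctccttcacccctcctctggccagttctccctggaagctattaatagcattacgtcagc
Atf4: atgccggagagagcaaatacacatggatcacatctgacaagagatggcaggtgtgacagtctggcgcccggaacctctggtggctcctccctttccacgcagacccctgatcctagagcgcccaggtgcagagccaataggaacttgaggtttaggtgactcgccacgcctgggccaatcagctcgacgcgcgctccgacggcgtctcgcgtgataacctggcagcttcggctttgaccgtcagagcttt
Ddit3: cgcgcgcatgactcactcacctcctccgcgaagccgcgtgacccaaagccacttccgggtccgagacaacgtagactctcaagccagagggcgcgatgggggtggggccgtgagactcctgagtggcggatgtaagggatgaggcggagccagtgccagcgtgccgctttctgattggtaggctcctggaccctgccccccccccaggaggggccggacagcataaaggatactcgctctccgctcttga
Chac1: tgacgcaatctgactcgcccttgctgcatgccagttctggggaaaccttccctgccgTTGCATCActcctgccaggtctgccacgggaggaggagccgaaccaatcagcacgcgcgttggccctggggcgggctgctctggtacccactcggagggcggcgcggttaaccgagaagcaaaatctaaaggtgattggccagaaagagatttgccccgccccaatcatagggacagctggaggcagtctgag
Trib3: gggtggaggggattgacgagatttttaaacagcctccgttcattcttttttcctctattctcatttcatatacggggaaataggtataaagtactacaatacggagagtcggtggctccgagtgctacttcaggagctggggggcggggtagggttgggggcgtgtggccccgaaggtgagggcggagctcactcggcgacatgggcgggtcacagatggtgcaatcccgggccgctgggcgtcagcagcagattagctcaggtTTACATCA
Ppp1r15a: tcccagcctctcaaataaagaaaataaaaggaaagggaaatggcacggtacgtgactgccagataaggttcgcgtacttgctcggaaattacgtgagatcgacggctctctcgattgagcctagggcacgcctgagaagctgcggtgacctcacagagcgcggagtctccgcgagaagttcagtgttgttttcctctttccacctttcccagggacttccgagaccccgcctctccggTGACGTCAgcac
Eif2ak3: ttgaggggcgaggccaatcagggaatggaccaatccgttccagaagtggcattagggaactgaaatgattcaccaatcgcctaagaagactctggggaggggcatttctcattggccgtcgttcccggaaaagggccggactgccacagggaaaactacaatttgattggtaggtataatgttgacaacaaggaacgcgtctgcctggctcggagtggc
In Atf3 (chr1:191183334-191183583, minus strand) the match TTGCATCA stood at −110 to −103. Chac1 (chr2:119350992-119351241, plus strand) carried the same 8 letters at −193 to −186. In Trib3 (chr2:152344039-152344310, minus strand) TTACATCA stood within the transcribed part, at 15 to 22. Ppp1r15a (chr7:45526269-45526518, minus strand) carried TGACGTCA at −12 to −5. No match to these letters was present in the windows of Atf4 (chr15:80254934-80255183, plus strand), Ddit3 (chr10:127290543-127290792, plus strand) and Eif2ak3 (chr6:70844265-70844483, plus strand).

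The array medians lay between 35.6 and 40.6 intensity units, and how precisely a difference is known is limited by the few arrays. The targeted gene Kdm1a was lower on every siLsd1 array than on any siC array by both of its probe sets. By 1426761_at it read 569 to 604 with siC and 327 to 332 with siLsd1 at 24 h, and 623 to 656 against 338 to 449 at 48 h (log2 change −0.83 and −0.65, limma adjusted p 0.0201 and 0.0160). The brighter probe set, 1426762_s_at, had log2 changes of −0.69 and −0.55 (adjusted p 0.0765, not called, and 0.0488). Its 48 h change was −0.35 with siLsd1 48 h replicate 3 left out (adjusted p 0.00603), and that call ended with any 24 h array or any siC 48 h array left out (adjusted p 0.0782 to 0.156). For 1426761_at, leaving out a siC 24 h array (replicate 1, then 2) ended the 24 h call at adjusted p 0.169 and 0.118, as did leaving out a siLsd1 24 h array (0.213 and 0.132). Its 48 h call ended with siC 48 h replicate 1, 2 or 3 left out (adjusted p 0.0639, 0.0713 and 0.0523). The third siLsd1 array at 48 h, replicate 3, did not resemble its group. Its log2 differences from its 2 replicates had an SD of 0.460 and 0.454 over 10949 bright probe sets (those averaging 8 or more on the log2 scale), against 0.0952 to 0.240 for the other pairs of arrays of the same group. Of these probe sets, 59.5% were nearer to the siLsd1 24 h mean than to the mean of its replicates, and so were 11 of the 12 member probe sets tested. All comparisons use a spread estimated with this array, so results are also given without it. Of 11 preadipocyte markers measured, 11 passed the dim filter. Their sum was 48360 to 49957 with siC and 44468 to 44980 with siLsd1 at 24 h, and 50071 to 51482 against 37409 to 47513 at 48 h, the lowest being siLsd1 replicate 3, and 1 of the 11 (Thy1) was called lower at each time. Of markers of other cell types, 7 of 10 for macrophages and leukocytes passed the filter (Cd14 the highest, at 334 to 440, and Ptprc below the filter), as did 3 of 6 endothelial and 2 of 6 epithelial ones (Epcam and Cdh1 below the filter). The summed macrophage and leukocyte markers lay at 953 to 977 with siC and 980.0 to 1026 with siLsd1 at 24 h, and at 854 to 879 against 814 to 955 at 48 h. The endothelial sums were 123 to 169 and 158.9 to 159.5 at 24 h, and 114 to 118 and 122 to 156 at 48 h, and the epithelial sums 65.1 to 107 at 24 h and 75.5 to 99.4 at 48 h over both siRNAs. The sum of 8 mature adipocyte markers (mostly Fabp4; 6 passed the filter, Lep did not) was 3679 to 3774 with siC and 1523 to 1803 with siLsd1 at 24 h, and 4781 to 5510 against 1562 to 3192 at 48 h. Of the 6 adipocyte markers tested, 0 were called at 24 h and 1 was called lower at 48 h. The preadipocyte and adipocyte sums thus moved with the siRNA, while most of their single markers were not called. The part of these sums in the changes of the members was not tested.

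With the siRNA against LSD1, Atf3 was 3.29-fold higher at 24 h and 6.02-fold higher at 48 h. At 48 h Chac1 was 2.57-fold higher, Trib3 2.08-fold and 1.76-fold higher by its probe sets and Ppp1r15a 1.95-fold higher. Ddit3 and Atf4, by 1 probe set each, were 1.41-fold and 1.35-fold higher, while Eif2ak3 was 1.82-fold lower. Atf5, Fgf21 and the second Ddit3 probe set were called at neither time. The comparison asks whether transcripts of the stress response differed between cells with less Kdm1a transcript and control cells. The members were chosen with earlier results of these data known, so their counts are a description.

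At 24 h, limma called 1 of the 12 member probe sets higher and 0 lower (adjusted p under 0.05 over all 33777 probe sets tested), where 1.07% of all probe sets were called higher, 0.941% lower and 2.02% in either direction. At an unadjusted limma p under 0.05, 4 of the 12 members passed, and so did 5421 of all 33777 probe sets. The median log2 change of the 12 was 0.23, against −0.01 over all probe sets. At 48 h, 7 were called higher and 1 lower, from 7 genes, where 3.07% of all probe sets were called higher, 2.89% lower and 5.96% in either direction. The median of the members was 0.66, against −0.03 over all. Without siLsd1 48 h replicate 3, 5 members were called higher and 1 lower at 24 h (14% of all probe sets called), and 7 higher and 1 lower at 48 h (9.45% of all). At 24 h the member count was 0 with any of the 4 arrays of that time left out (siC replicate 1 or 2, siLsd1 replicate 1 or 2). At 48 h it was 5, 3 and 4 with siC replicate 1, 2 or 3 of that time left out. The share of all probe sets called in these fits is not given, so these counts lack a background.

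**Figure D1:**
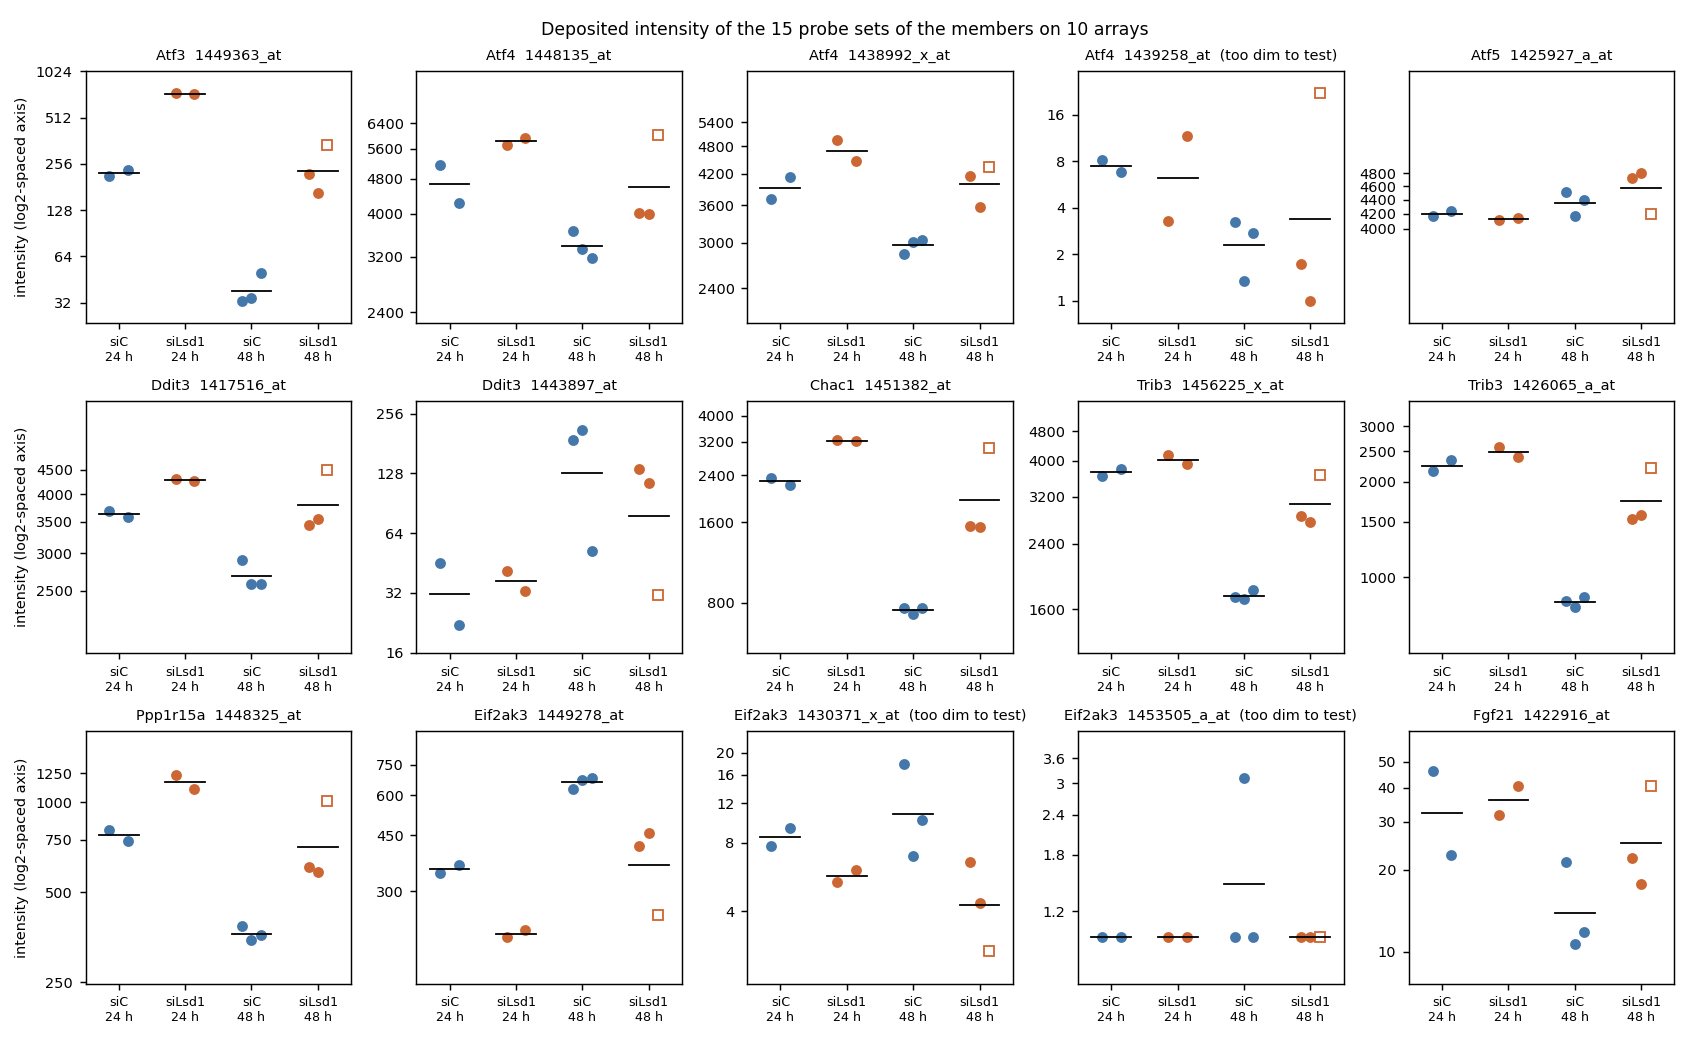
Deposited intensity of each of the 15 member probe sets on the 10 arrays, on log2-spaced axes that differ between panels. Points are arrays (blue siC, orange siLsd1, the open square siLsd1 48 h replicate 3) and bars are the mean of the log2 values of a group. Atf3 spans 33.0 to 739, and the open square lies above its replicates for Chac1, Trib3 and Ppp1r15a and below them for Eif2ak3.

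Eif2ak3, the gene of the sensor kinase PERK, was called lower with siLsd1 at 48 h only, by 1449278_at. By this probe set the siLsd1 arrays lay below the siC arrays at both times. The share of all probe sets without overlap is not given, so non-overlap is a description here and elsewhere. At 24 h, 1449278_at read 343 and 362 with siC, and 216 and 227 with siLsd1. At 48 h the siC arrays read 630, 668 and 682 and the siLsd1 arrays 415, 457 and 253, the lowest being replicate 3. The 24 h difference, from 352 ± 13.6 to 221 ± 7.93 (SD, n = 2), was not called (log2 change −0.67, SE 0.23, limma adjusted p 0.178), and without siLsd1 48 h replicate 3 it was (adjusted p 0.000661). The 48 h fall, from 660.2 ± 27.1 to 375 ± 108 (SD, n = 3), was called (log2 change −0.86, SE 0.19, limma adjusted p 0.0302), and it was −0.60 without replicate 3 (adjusted p 0.00126). The 48 h call ended when any of 7 other arrays was left out: siC 24 h replicate 1 and 2 (adjusted p 0.0537 and 0.0543), siLsd1 24 h replicate 1 and 2 (0.0596 and 0.0597), and siC 48 h replicate 1, 2 and 3 (0.0840, 0.110 and 0.0911). The other Eif2ak3 probe sets were dim. The probe set 1430371_x_at lay between 2.68 and 17.8, and 1453505_a_at read 1 on 9 arrays and 3.12 on siC 48 h replicate 2.

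Atf4, the gene of the central transcription factor of the response, showed small differences in transcript level. At 24 h, 1448135_at read 5157 and 4232 in siC cells, compared with 5726 and 5933 in siLsd1 cells. At 48 h the siC arrays read 3663, 3331 and 3170 and the siLsd1 arrays 4015, 3992 and 6003, with no overlap at either time. These differences of 0.32 and 0.44 on the log2 scale were not called (limma adjusted p 0.426 and 0.0967), although the 24 h one was without siLsd1 48 h replicate 3 (adjusted p 0.0395). A second probe set, 1438992_x_at, read 3708 and 4123 with siC at 24 h and 4954 and 4456 with siLsd1, which was not called (log2 change 0.27, limma adjusted p 0.228). At 48 h this probe set read 2835, 3011 and 3034 with siC and 4141, 3565 and 4331 with siLsd1, and here the groups again did not overlap. The rise from 2960.0 ± 109 to 4012 ± 399 (SD, n = 3) was called (log2 change 0.43, SE 0.08, limma adjusted p 0.0195), and with replicate 3 left out it was 0.38 (adjusted p 0.0124). That call was lost without siC 48 h replicate 1, 2 or 3 (adjusted p 0.0757, 0.0735 and 0.0578). The third probe set, 1439258_at, lay between 1 and 22.1 and was too dim to test. The array does not measure translation, the step at which ATF4 is known to be controlled.

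Atf5, a relative of Atf4 in the same response, stayed within a narrow band. Its single probe set (1425927_a_at) read 4167 and 4238 on the siC arrays and 4111 and 4150 on the siLsd1 arrays at 24 h. These groups did not overlap although the log2 change was −0.02, so separation of 2 against 2 arrays says little by itself. The 48 h arrays read 4518, 4173 and 4394 for siC and 4730, 4795 and 4201 for siLsd1, and overlapped. The log2 changes were −0.02 (95% interval −0.19 to 0.14) and 0.07 (−0.07 to 0.20), and neither was called (limma adjusted p 0.920 and 0.537).

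Ddit3, the gene of the pro-apoptotic factor CHOP, was measured by probe sets that disagreed. The brighter, 1417516_at, read 3683 and 3581 on the siC arrays at 24 h and 4307 and 4256 on the siLsd1 arrays. This difference of 0.24 on the log2 scale was not called (limma adjusted p 0.360), but it was when siLsd1 48 h replicate 3 was left out (0.0296). By 48 h the siC arrays read 2908, 2584 and 2588 and the siLsd1 arrays 3448, 3548 and 4493, so each siLsd1 array lay above each siC array. This rise, from 2693 ± 186 to 3830 ± 576 (SD, n = 3), was called (log2 change 0.50, SE 0.10, limma adjusted p 0.0204), and it was 1.30-fold without replicate 3 (adjusted p 0.00273). The call was lost without siC 48 h replicate 2 or 3 (adjusted p 0.0906 and 0.0724).

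The dimmer Ddit3 probe set, 1443897_at, read 45.3 and 22.2 with siC at 24 h and 41.3 and 32.8 with siLsd1. The 48 h readings were 189, 213 and 52.2 with siC and 135, 114 and 31.1 with siLsd1, so that replicate 3 was the lowest array of both 48 h groups and the groups overlapped. Its log2 change was 0.22 at 24 h and −0.71 at 48 h (95% interval −2.10 to 0.69), with limma adjusted p 0.934 and 0.526, and at 48 h it was −0.04 without siLsd1 48 h replicate 3. The 24 h value turned to −0.30 when siC 24 h replicate 2 was left out. Across the 10 arrays the log2 intensities of the Ddit3 probe sets had a Pearson r of −0.644, given here as a description. Each sign above therefore holds for its own probe set and not for the gene as a whole.

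Atf3, a stress-inducible factor of the ATF and CREB family, had the largest change of the 12 member probe sets at both times. Its single probe set (1449363_at, gene at chr1:191170296-191183333) read 214 and 232 in control cells at 24 h and 739 and 726 in siLsd1 cells. At 48 h the control cells read 33.0, 34.3 and 49.6 and the siLsd1 cells 220, 164 and 339. No siLsd1 array overlapped with the siC arrays of its time, and the levels ran from siLsd1 24 h as the highest to siC 48 h as the lowest, with siC 24 h inside the range of siLsd1 48 h. The 24 h rise, from 223 ± 13.1 to 732 ± 9.34 (SD, n = 2), had a log2 change of 1.72 (SE 0.30, limma adjusted p 0.0210). The 48 h rise, from 39.0 ± 9.28 to 241 ± 89.0 (SD, n = 3), had a log2 change of 2.59 (SE 0.24, limma adjusted p 0.000525). The 48 h rise was 4.97-fold with siLsd1 48 h replicate 3 left out (adjusted p 6.90e-05). The 48 h call held under all 23 alternatives in processing and left-out arrays, with log2 changes of 2.18 to 2.83. The siC 48 h readings lay near the array medians, so folds against that group rest on a low level. The 24 h call rested on each of the 4 arrays at that time: adjusted p was 0.169 and 0.126 with siC replicate 1 or 2 left out, and 0.218 and 0.137 with siLsd1 replicate 1 or 2 left out.

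Chac1, which encodes an enzyme that breaks down glutathione and is induced through ATF4, was higher with siLsd1. The probe set 1451382_at read 2348 and 2203 with siC at 24 h and 3253 and 3215 with siLsd1. Its 48 h values were 767, 724 and 764 with siC and 1555, 1530 and 3037 with siLsd1, where replicate 3 stood well above the other siLsd1 arrays. All siLsd1 arrays exceeded the siC arrays of the same time. The 24 h difference of 1.42-fold was not called (log2 change 0.51, SE 0.26, limma adjusted p 0.383) and was called without siLsd1 48 h replicate 3 (adjusted p 0.000363). The 48 h rise, from 752 ± 24.2 to 2041 ± 863 (SD, n = 3), was called (log2 change 1.36, SE 0.21, limma adjusted p 0.0101), and it was 2.05-fold without replicate 3 (adjusted p 7.11e-06). Without siC 48 h replicate 2 the adjusted p was 0.0540, and with the 48 h arrays fitted alone it was 0.0679.

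Trib3, which encodes a pseudokinase that is induced by ATF4 and CHOP and restrains them, was higher at 48 h by both of its probe sets. At 24 h, 1456225_x_at read 3643 and 3803 in siC cells and 4131 and 3927 in siLsd1 cells, and at 48 h 1723, 1708 and 1799 in siC cells and 2848, 2748 and 3673 in siLsd1 cells. The 24 h values of the other, 1426065_a_at, were 2164 and 2342 (siC) and 2575 and 2390 (siLsd1). Its 48 h values were 843, 805 and 865 (siC) and 1524, 1574 and 2217 (siLsd1). Its groups, like those of the first, did not overlap at either time, but the 24 h differences were small against their error. The 24 h log2 changes were 0.11 (95% interval −0.15 to 0.38) and 0.14 (−0.20 to 0.49), neither of them called (limma adjusted p 0.713 and 0.729). At 48 h the log2 changes were 0.81 (SE 0.10) and 1.06 (SE 0.13), both called (limma adjusted p 0.00280 and 0.00264), and without siLsd1 48 h replicate 3 they were 0.68 and 0.89 (adjusted p 3.84e-05 and 2.90e-05). No left-out array ended either 48 h call.

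Ppp1r15a, whose product GADD34 directs a phosphatase to eIF2alpha, was higher with siLsd1 at 48 h. At 24 h, 1448325_at read 808 and 743 in control cells, compared with 1237 and 1111 in siLsd1 cells. At 48 h control cells read 386, 346 and 360 and siLsd1 cells 607, 583 and 1012, without overlap at either time. The 24 h difference of 1.51-fold was not called (log2 change 0.60, SE 0.22, limma adjusted p 0.218) and was called without siLsd1 48 h replicate 3 (adjusted p 0.00131). The 48 h rise, from 364 ± 19.9 to 734 ± 241 (SD, n = 3), was called (log2 change 0.97, SE 0.18, limma adjusted p 0.0190), and it was 1.64-fold without replicate 3 (adjusted p 0.000463). The call was lost without siC 48 h replicate 1, 2 or 3 (adjusted p 0.0615, 0.0826 and 0.0623).

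Fgf21, a hormone gene that ATF4 can induce, was dim in these cells. The probe set 1422916_at read 46.3 and 22.8 on siC arrays at 24 h and 31.8 and 40.8 on siLsd1 arrays. The 48 h arrays read 21.4, 10.7 and 11.8 for siC and 22.1, 17.8 and 40.5 for siLsd1. The groups overlapped at both times. The log2 change was 0.15 at 24 h (95% interval −0.94 to 1.24) and 0.85 at 48 h (−0.04 to 1.75), with limma adjusted p 0.927 and 0.217. The 24 h value was −0.36 with siC 24 h replicate 2 left out and −0.03 with siLsd1 24 h replicate 2 left out. Leaving out siLsd1 48 h replicate 3 brought the 48 h value to 0.51.

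**Figure D2:**
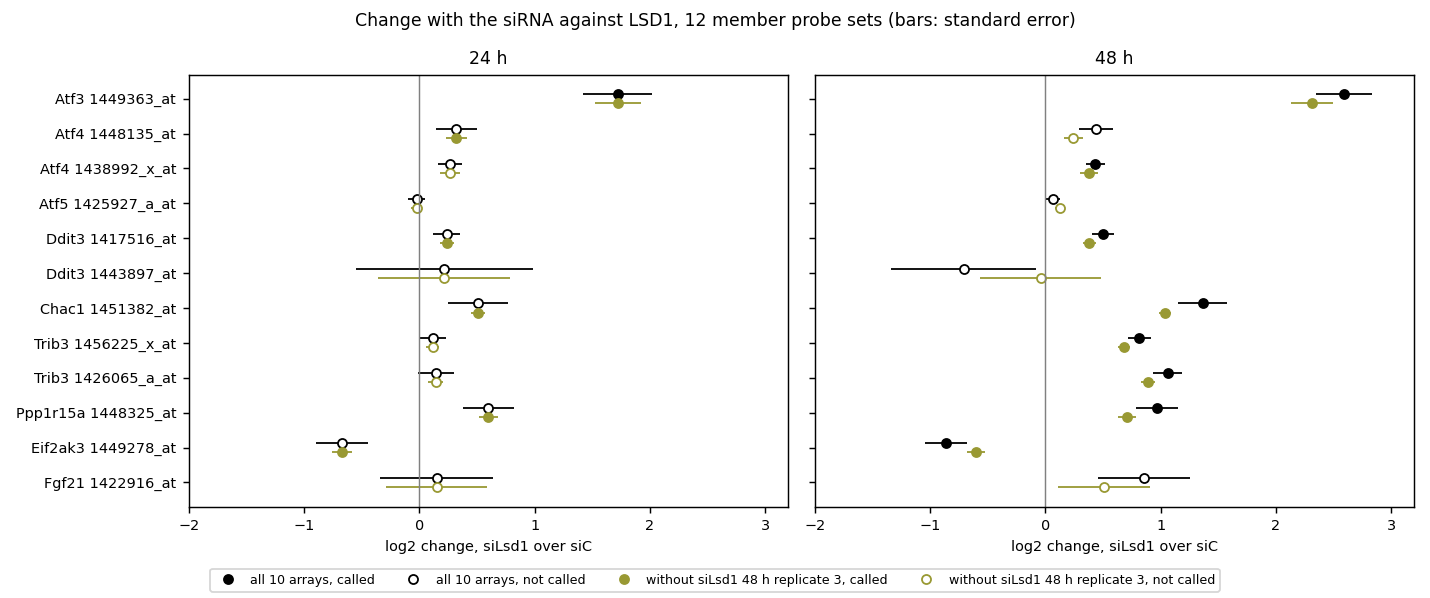
Log2 change of the 12 tested member probe sets, siLsd1 over siC, at 24 h and at 48 h, with bars of 1 standard error. Black marks use all 10 arrays and green marks leave out siLsd1 48 h replicate 3, and filled marks are called by limma (adjusted p under 0.05). At 48 h 8 black marks are filled, and Atf3 lies farthest from 0 at both times.

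The difference of the siLsd1 change between 48 h and 24 h was called for 0 of the 12 member probe sets and for 0% of all probe sets by limma. At an unadjusted p under 0.05 it passed for 4 members and for 1883 of all 33777. These 4 were the probe sets of Trib3, 0.92 and 0.70 on the log2 scale (unadjusted p 0.000955 and 0.00109, adjusted p 0.742 for both), Atf3 (0.87, unadjusted p 0.0460, adjusted p 0.886) and Chac1 (0.86, unadjusted p 0.0291, adjusted p 0.857). Fgf21 (0.71) and the dimmer Ddit3 probe set (−0.92) had values as large with a larger error (SE 0.64 and 0.99). Without siLsd1 48 h replicate 3, the differences of Trib3 (0.75 and 0.57, limma adjusted p 0.0224 and 0.0232) and Chac1 (0.53, adjusted p 0.0308) were called, where 0.299% of all probe sets were. With the array included, no member is shown to respond differently at the 2 times.

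In control cells, most of the members were lower at 48 h than at 24 h, the times at which the cells were of different passage. Of the 12 probe sets, 7 were called lower and 1 higher, from 7 genes, where 8.62% of all probe sets were called lower, 10.4% higher and 19.0% in either direction. Atf3 fell 5.82-fold (log2 change −2.54, limma adjusted p 0.000309) and Chac1 3.03-fold (−1.60, adjusted p 0.00161). Trib3 fell by 1.43 and 1.09 on the log2 scale (limma adjusted p 0.000217 and 0.000227) and Ppp1r15a by 1.09 (adjusted p 0.00490). Smaller falls were called for Ddit3 by 1417516_at (−0.43, limma adjusted p 0.0185) and Atf4 by 1438992_x_at (−0.40, adjusted p 0.0132). Eif2ak3 went the other way and rose 1.87-fold (log2 change 0.91, limma adjusted p 0.0135). The dimmer Ddit3 probe set was higher at 48 h by 2.02 on the log2 scale, and this was not called (adjusted p 0.0727). It was called with siC 48 h replicate 3 (adjusted p 0.0225) or siLsd1 48 h replicate 3 (0.0138) left out, with array weights (0.00612) and with the compared arrays alone (0.0457). Centring the arrays on their medians moved the median of all probe sets in this comparison from 0.02 to −0.12.

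Some of these calls rested on single control arrays. The fall of Ddit3 was not called without siC 24 h replicate 1 or 2 (adjusted p 0.116 and 0.0848) or siC 48 h replicate 2 or 3 (0.0654 and 0.0563), nor the rise of Eif2ak3 without siC 24 h replicate 1 or 2 (0.0948 and 0.0700). The Atf4 call was lost without siC 24 h replicate 2 (adjusted p 0.120), and that of Ppp1r15a without siC 24 h replicate 1 (0.0504). Leaving out siC 24 h replicate 1 or 2 left 5 members called in either case. The comparisons of siLsd1 with siC at 24 h and at 48 h use these same siC arrays, so a low siC level at 48 h enters both that fall and the rise with siLsd1.

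In cells with the siRNA against LSD1, only the fall of Atf3 from 24 h to 48 h was called among the 12 member probe sets (log2 change −1.67, limma adjusted p 0.00605), where 8.99% of all probe sets were called. Leaving out siLsd1 24 h replicate 1 or 2 ended that call (adjusted p 0.0636 and 0.0694). The median log2 change of the members was −0.37, against 0.01 over all. Without siLsd1 48 h replicate 3, 8 members were called lower and 3 higher (26.5% of all probe sets called), among them Chac1 (−1.07, limma adjusted p 3.35e-06), Ppp1r15a (−0.98, adjusted p 2.73e-05) and Eif2ak3 (0.98, adjusted p 2.76e-05).

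The other genes of the pathway were read by their brightest probe set from lists of what the genes are known to do. These lists were chosen with earlier results of these data known, so their counts are a description. Among 8 genes for eIF2 kinases and their binding partners, 0 were called higher and 1 lower at each time (2.02% and 5.96% of all probe sets called at 24 h and 48 h). That gene was Prkra, whose product activates the kinase PKR (log2 change −0.85 and −0.57, limma adjusted p 0.0418 and 0.0487). Eif2ak1, Eif2ak2 and Eif2ak4, the genes of the other eIF2 kinases, had log2 changes between −0.14 and 0.19 and were not called. Eif2ak2, the gene of PKR, was called at 48 h when siLsd1 48 h replicate 3 was left out (0.44, limma adjusted p 0.00198).

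Of 13 genes for eIF2, its exchange factor eIF2B and the eIF2alpha phosphatase, 0 were called at 24 h (2.02% of all probe sets called). Eif2b2 (0.29) and Eif2d (−0.23) had the smallest p there. At 48 h 2 were called higher and 0 lower (3.07% and 2.89% of all). They were Eif2b2, a subunit of eIF2B (0.46, limma adjusted p 0.0322), and Ppp1r15b, the constitutive counterpart of Ppp1r15a (0.29, adjusted p 0.0475). With siLsd1 48 h replicate 3 left out, 3 genes of this list were called higher at each time (14% and 9.45% of all probe sets called). The 48 h count was 1 with siLsd1 48 h replicate 2 left out and 0 with any 24 h or siC 48 h array left out.

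Among 25 bZIP partners and relatives of ATF3, ATF4 and CHOP, 1 was called higher and 1 lower at 24 h (1.07% and 0.941% of all probe sets). At 48 h 3 were called higher and 1 lower (3.07% and 2.89% of all). The median log2 change of the 25 was 0.25 and 0.14, against −0.01 and −0.03 over all probe sets. Jun, an AP-1 subunit, was higher at both times (0.65 and 0.30, limma adjusted p 0.0103 and 0.0423), although its other probe set had −0.16 at 48 h, not called. At 48 h Nfe2l1 (0.66, limma adjusted p 0.0182) and Cebpb (0.47, adjusted p 0.0370) were also higher. Atf6, the gene of another sensor of the endoplasmic reticulum, was lower at both times by its brightest probe set (−0.81 and −0.70, limma adjusted p 0.0189 and 0.0103), while 1453288_at read 0.41 and 0.70 and was not called (adjusted p 0.485 and 0.0769). Leaving out siLsd1 48 h replicate 3, 9 were called higher and 2 lower at 24 h, and 3 and 1 at 48 h (14% and 9.45% of all probe sets called).

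Of 40 other targets of ATF4 and CHOP, 0 were called higher and 1 lower at 24 h (1.07% and 0.941% of all probe sets). The median log2 change of the 40 was 0.15. At 48 h 16 were called higher and 1 lower, with a median of 0.47 (against −0.03 over all probe sets, of which 3.07% were called higher). The rises with the largest fold were those of Slc7a5, an amino acid transporter (2.20-fold, limma adjusted p 0.000959), Wars, a tRNA synthetase (2.18-fold, adjusted p 0.0146), Ero1a, an oxidase of the endoplasmic reticulum (2.12-fold, adjusted p 0.00410), and Ddit4, an inhibitor of mTORC1 (1.86-fold, adjusted p 0.0236). Slc7a5 read 713, 659 and 665 with siC at 48 h against 1323, 1362 and 1845 with siLsd1, without overlap. The gene called lower at 24 h was Herpud1 (−0.41, limma adjusted p 0.0400), and at 48 h it was Kdm7a, a histone demethylase gene (−0.73, adjusted p 0.0270). Without siLsd1 48 h replicate 3, 11 were called higher and 7 lower at 24 h (14% of all probe sets called). At 48 h 22 were then called higher and 3 lower (9.45% of all). The count of 16 dropped to 11 with a siC 24 h array left out (replicate 1 or 2), to 8 with a siLsd1 24 h array left out (replicate 1 or 2), and to 4, 3 and 5 with siC 48 h replicate 1, 2 or 3 left out. In control cells, 23 of the 40 were called lower and 3 higher at 48 h than at 24 h, with a median of −0.54 against 0.02 over all. Of all probe sets, 8.62% were called lower and 10.4% higher in that comparison.

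Among 26 genes of the IRE1 and ATF6 arms of the unfolded protein response, 0 were called higher at either time (1.07% and 3.07% of all probe sets). Called lower were 3 at 24 h and 4 at 48 h, against 0.941% and 2.89% of all probe sets. The median log2 change of the 26 was −0.13 and −0.10, against −0.01 and −0.03 over all. At 24 h the genes called lower were Atf6, Herpud1 and the chaperone gene Pdia4 (−0.59, limma adjusted p 0.0349). The first 2 also stand in lists above, and the other Pdia4 probe set had −0.07, not called (adjusted p 0.918). At 48 h those called lower were Atf6, Manf (−0.48, limma adjusted p 0.0131), Creld2 (−0.38, adjusted p 0.0266) and Pdia6 (−0.36, adjusted p 0.0416). The last 3 encode proteins of the secretory pathway. Hspa5, the gene of the chaperone BiP, had 0.24 and 0.08 and was not called (limma adjusted p 0.298 and 0.636). Leaving out siLsd1 48 h replicate 3, 2 were called higher and 7 lower at 24 h, and 1 and 5 at 48 h (14% and 9.45% of all probe sets called).

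Of 8 relatives of Trib3, Chac1, Fgf21 and the GADD genes, 2 were called higher and 0 lower at 24 h (1.07% and 0.941% of all probe sets). At 48 h 0 were called (5.96% of all). The 2 at 24 h were the stress genes Gadd45b (2.37-fold, limma adjusted p 0.0389) and Gadd45g (2.24-fold, adjusted p 0.00621). Without siLsd1 48 h replicate 3, 3 were called higher and 1 lower at 24 h, and 1 and 1 at 48 h (14% and 9.45% of all probe sets called). At 48 h the smallest p belonged to Trib2 (−0.72, limma adjusted p 0.0502), whose other probe set had 0.23, and Gadd45a (1.21, adjusted p 0.0557). Gadd45a read 1169, 1055 and 3195 on the siLsd1 arrays at 48 h, and with replicate 3 left out it had 0.70 (limma adjusted p 0.000152) and Trib2 −0.47 (adjusted p 0.0139).

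Calls of these named list genes depended on single arrays. Of 7 called at 24 h, 6 lost the call with siC 24 h replicate 1 left out (Gadd45g did not), and 7 lost it with siC 24 h replicate 2, siLsd1 24 h replicate 1 or siLsd1 24 h replicate 2 left out. Of 14 called at 48 h, 10, 12 and 10 were not called without siC 48 h replicate 1, 2 or 3. Slc7a5 and Ero1a kept their 48 h call with each array left out in turn.

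**Figure D3:**
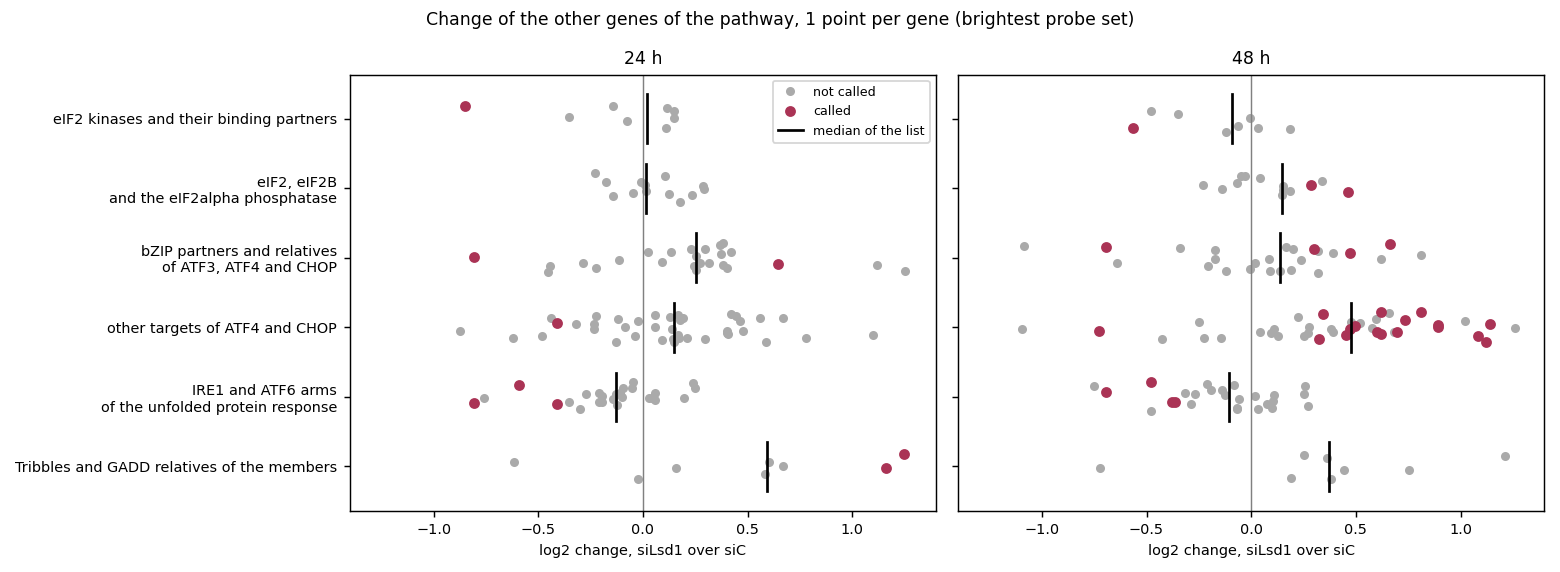
Log2 change, siLsd1 over siC, of the genes of 6 pathway lists at 24 h and at 48 h. Each point is a gene by its brightest probe set, red points are called by limma (adjusted p under 0.05), grey points are not, and the vertical line is the median of the list. Among the other targets of ATF4 and CHOP 16 points are red to the right of 0 at 48 h and 0 at 24 h.

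Across the 10 arrays, the log2 levels of most members, each by its brightest probe set, followed each other closely, and Eif2ak3 ran opposite to them. Atf5 did not follow, Fgf21 followed less closely (Pearson r 0.769 with Atf3), and the dimmer Ddit3 probe set ran against the brighter (−0.644). Chac1 and Ppp1r15a had a Pearson r of 0.991, Atf3 and Atf4 0.888, and Ppp1r15a and Eif2ak3 −0.996, whereas Atf5 had −0.501 to 0.465 with the others. The points are arrays of 4 groups and share the group means, and the values are given as a description. Over 15042 genes, those most like Chac1 were Slc7a1, Asns, Iars, Apobec1 and Ppp1r15a (r 0.997, 0.997, 0.996, 0.995 and 0.991). Trib3 was most like Paqr3, Phgdh, Ccnd2, Mars1 and Iars (r 0.994, 0.993, 0.992, 0.991 and 0.990), and Ddit3 by its brighter probe set most like Nfe2l1, Lonp1, Wars, Slc6a9 and Sptlc2 (r 0.990, 0.985, 0.984, 0.982 and 0.980). For Atf3 the list differed and held Cxcl9, Cxcl11, Usp18, Marchf5 and Cacybp (r 0.996, 0.996, 0.995, 0.994 and 0.992), of which the first 3 are known as interferon-induced genes.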

How the data were processed

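The deposited values of the 10 Affymetrix arrays are linear intensities, 1 per probe set. Summarisation, normalization and genome build are not given in the sources used here. All columns matched a labelled sample. Gene names come from the platform annotation (34945 with 1 gene symbol, 932 with several, 9160 with none listed). Log2 of the intensity was fitted with 1 mean per group (limma 3.58.1 in R 4.3.3, lmFit and eBayes with an intensity trend) over 33777 probe sets, those above the dimmest 25%, leaving 6 residual degrees of freedom. A probe set was called at a Benjamini-Hochberg adjusted p under 0.05, adjusted within the comparison. The fit was tested on simulated data. Means ± SD are of linear intensities; folds and log2 changes come from the log2 scale.

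Named are all members, Kdm1a, and from each list up to 4 called genes with the largest change or, where none was called, up to 2 with the smallest p; Eif2ak1, Eif2ak2, Eif2ak4, Kdm7a and Hspa5 were named after their values were seen. Likeness was read for the brightest probe set of Atf3, Ddit3, Trib3 and Chac1, with the 5 most like genes each. Members and lists were chosen with earlier results of these data known. Promoter stretches and symbols came from RefSeq (GRCm38.p6), and figures were drawn with matplotlib 3.10.9. Alternatives were other filters, 1 probe set per gene, 16 added to the intensity, quantile normalization, median centring, the compared arrays alone, weighted arrays, a threshold of 1.5-fold, no intensity trend, blocks by replicate number or sample code, and each array left out. Averaging siLsd1 48 h replicates 1 and 2, a crossed pairing, and the list counts without siLsd1 48 h replicate 3 were chosen after seeing the data.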

Additional observations from a re-analysis of the deposited data

How the results depend on the processing

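At 24 h, where 1 member probe set was called, the count was 0 with no intensity trend or a required change of 1.5-fold, 5 with array weights or the compared arrays alone, 3 with a replicate block by sample code, and 0 to 6 with each array left out. At 48 h (8 called) it was 4 with no intensity trend, 3 with the compared arrays alone, 5 with the replicate block by number, 1 at 1.5-fold, 10 with array weights, and 3 to 8 with each array left out. For the difference between times (0 called) it was 2 with array weights and 0 to 3 with each array left out. For siC over time (8 called) it was 4 at 1.5-fold, 6 with no intensity trend, 9 with median centring, 10 with the compared arrays alone, 11 with array weights and 5 to 11 with each array left out. For siLsd1 over time (1 called) it was 5 with the dimmest 50% left out, 4 with 1 probe set per gene, 2 with quantile normalization, 11 with array weights, 0 with the compared arrays alone or at 1.5-fold, and 0 to 11 with each array left out. Averaging siLsd1 48 h replicates 1 and 2 left the 5 counts at 1, 8, 0, 8 and 1. The share of all probe sets called moved too. Leaving out siLsd1 48 h replicate 3 took it from 2.02% to 14% at 24 h and from 5.96% to 9.45% at 48 h. For siC and siLsd1 over time it went from 19.0% to 31.1% and from 8.99% to 26.5%. For the other settings and left-out arrays, here and above, that share is not given. Counts of members and list genes under them cannot be read as particular to these genes. Deviations of same-numbered arrays correlated at −0.148 at 24 h and at −0.164, 0.148 and 0.0307 at 48 h. Differently numbered 48 h arrays ran from −0.235 to 0.298. At 24 h the deviations of the 2 arrays of a group mirror each other, and the 48 h arrays are few. The values therefore do not settle whether the numbers pair the samples. With the 24 h numbers crossed, the replicate block gave 1, 6 and 0 at 24 h, 48 h and for the difference. Signs turned for values that were not called. The replicate block by sample code shares 1 code between the siRNAs at 24 h, so its 24 h values and count rest on 1 siC and 1 siLsd1 array. At 48 h it leaves replicate 3 of each siRNA without a partner. With this block the 24 h change was −0.47 for the dimmer Ddit3 probe set and −0.18 for Fgf21. With each array left out these ran from −0.30 to 0.73 and from −0.36 to 0.66. For Atf4 (1448135_at) the difference between times was −0.034 with array weights, −0.0057 with the code block and −0.076 to 0.26 with each array left out, and for Eif2ak3 it was 0.038, 0.018 and −0.36 to 0.070. With arrays centred on the median, siC over time gave −0.084 for Atf5 and −0.025 and −0.0086 for the Kdm1a probe sets. The cause of these shifts was not tested. Of 272 member values under alternatives at 48 h, 235 kept direction and side of the threshold, 35 lost the call, 2 gained it and 0 turned; at 24 h these were 246, 6, 15 and 5 of 272. Low signal limits Fgf21, the dimmer Ddit3 probe set on some arrays and the 3 probe sets left untested. It also limits the size of the Atf3 changes, as its siC 48 h arrays read 33.0 to 49.6.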
